A study of Mus musculus with 4 samples.

Results

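Proximal tubule barcodes of an aged mouse kidney library in which Tfeb was targeted in the proximal tubule were compared with those of a young library of the same genotype. A barcode was taken as proximal tubule when it held at least 1000 detected genes, at most 50% of UMIs (unique molecular identifiers, counted transcript molecules) from mitochondrially encoded genes, and at least 5 UMIs per 10000 of Slc34a1, the apical sodium-phosphate cotransporter, and Slc7a13, an amino acid transporter of the S3 segment, summed. This gave 3590 barcodes in the young and 2629 in the aged library, 6219 of the 22782 barcodes of both and of the 15400 that passed the filters on genes and mitochondrial share. The same rule gave 4354 and 2931 barcodes in the young and aged libraries of the control genotype, and the whole series held 48085 barcodes.

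All mice were male, and the renal cortex was studied by 3′ single-cell RNA-Seq. The groups were young Tfebfl/fl KAP, aged Tfebfl/fl KAP, young Tfebfl/fl and aged Tfebfl/fl, where young was 6 weeks and aged was 24 months. Both alleles of Tfeb were floxed in every group, and KAP stands for a Cre transgene under the promoter of the kidney androgen-regulated protein, which was described as acting in the S3 segment, so that S1 and S2 cells of the KAP groups need not lack TFEB. Each group was a single library made from 2 or 3 pooled mice. There was thus no replicate, no test was run, and every interval given is a 95% interval of counting error alone, which leaves out the spread between mice and between library preparations.

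TFEB is a transcription factor of the MiT/TFE family that moves to the nucleus when nutrients are scarce or lysosomes are stressed, and there it activates genes of lysosome formation and autophagy. The proximal tubule reabsorbs most of the filtered sodium, glucose, phosphate, amino acids and protein. It takes protein apart in lysosomes, burns fatty acids in mitochondria and peroxisomes, and in male mice its S3 segment expresses many genes that depend on androgen.

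The members held 67225913 UMIs in young and 57549506 in aged Tfebfl/fl KAP, with medians of 15964 and 17708 UMIs, 3493 and 3689 genes, and 22.7% and 21.5% mitochondrial UMIs per barcode. In Tfebfl/fl they held 77992513 and 65053153 UMIs. Among members, the 10 proximal tubule markers that the rule did not use summed to between 10727 and 12206 CPM (counts scaled to a total of 1000000) in the 4 libraries, against 66.8 to 253 CPM in the other barcodes that passed the filters, and none was at 0. The lowest rule value inside was 5.11 per 10000 UMIs in the young and 5.02 in the aged KAP library, the highest outside was 4.96 and 4.97, and Slc7a13 was needed to enter the set in only 10 and 16 barcodes. The KAP libraries shared 34 barcode sequences, of which 1 belonged to a member in both. Markers of other cells were low among members and differed with age: red cell genes summed to 240 and 66.4 CPM in young and aged Tfebfl/fl KAP, fibroblast and mural genes to 46.6 and 4.4 CPM (with Col1a1 at 0 in aged), and thick ascending limb genes to 288 and 158 CPM.

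Tfeb itself was sparse. It was counted at 7.14 CPM (480 UMIs) in young and 4.60 CPM (265 UMIs) in aged Tfebfl/fl KAP, and at 8.19 and 7.04 CPM in young and aged Tfebfl/fl. The log2 ratio of aged over young was -0.63 (-0.85 to -0.41) in Tfebfl/fl KAP and -0.22 in Tfebfl/fl. A 3′ count need not register the loss of internal exons, so these values do not check the deletion. In the other barcodes of the KAP libraries, those with no UMI of Slc34a1 or Slc7a13, Tfeb stood at 21.8 and 24.1 CPM in young and aged.

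The largest age differences in Tfebfl/fl KAP lay in xenobiotic and amino acid enzymes, which were higher in aged, and in a fatty acid binding protein, secreted proteins and reabsorptive transporters, which were lower. Of 6996 genes with a mean of at least 10 CPM, 67 (0.958%) were at least 2-fold higher in aged and 77 (1.1%) at least 2-fold lower, and the median log2 ratio over all 6996 was 0.008.

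Cyp2d12, a cytochrome P450, had the highest ratio of the genes with a mean of at least 50 CPM. It stood at 38.0 and 567 CPM in young and aged Tfebfl/fl KAP, and at 33.4 and 659 CPM in young and aged Tfebfl/fl, so both aged libraries lay far above both young ones. The log2 ratio was 3.90 (3.84 to 3.96) in Tfebfl/fl KAP and 4.30 in Tfebfl/fl. Hpd, the dioxygenase of tyrosine breakdown, went from 11.9 to 132 CPM with age in Tfebfl/fl KAP and from 25.6 to 138 CPM in Tfebfl/fl, log2 ratios of 3.46 and 2.43. Cyp2a4 and Cyp2a5, steroid and coumarin hydroxylases whose transcripts are nearly identical and may have shared reads, had log2 ratios of 2.98 and 3.26. Azgp1, which encodes a secreted lipid-mobilizing glycoprotein, stood at 47.5 and 249 CPM in young and aged, a log2 ratio of 2.39. Cyp2d9, Rdh16f2 and Cyp2c23, enzymes of steroid, retinoid and arachidonate metabolism, had ratios of 2.06, 1.78 and 1.29, and Hao2, a peroxisomal hydroxy acid oxidase, had 1.70. Each of these 9 genes was also higher in aged than in young Tfebfl/fl, by log2 ratios between 1.33 and 4.30.

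These differences were also seen in the number of barcodes that held the transcript. After each barcode was thinned to 2000 UMIs, Cyp2d12 was detected in 5.48% of young and 50.4% of aged Tfebfl/fl KAP members (13.1% and 73.5% without thinning). In barcodes of the same libraries with no UMI of Slc34a1 or Slc7a13, whose median depths were 11194 and 10384 UMIs, the shares were 0.13% and 2.37%. Hpd was detected in 2.24% of young and 19.5% of aged members after thinning and Cyp2a4 in 5.20% and 33.4%, with at most 0.59% of the other barcodes of the KAP libraries holding either.

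At the other end, Fabp3, a fatty acid carrier of oxidative tissue, stood at 170 and 26.6 CPM in young and aged Tfebfl/fl KAP and at 199 and 24.1 CPM in Tfebfl/fl. The log2 ratio was -2.67 (-2.75 to -2.60), and -1.91 among barcodes with at most 20% mitochondrial UMIs. Fabp3 was more abundant in the other barcodes of the KAP libraries, at 469 and 334 CPM in young and aged, and their part in the members' value was not tested. Gatm, which makes the creatine precursor guanidinoacetate, stood at 1972 and 784 CPM in young and aged, a log2 ratio of -1.33 (-1.35 to -1.32), and other barcodes held only 7.50 and 8.61 CPM of it. Slc5a2, the sodium-glucose cotransporter SGLT2 of the early proximal tubule, stood at 479 and 177 CPM, a log2 ratio of -1.43, and Slc7a8, a basolateral neutral amino acid exchanger, at 206 and 75.8 CPM, -1.44. Spp2, a secreted phosphoprotein, had -1.70, and Dpep1, a brush border dipeptidase, and Acss1, a mitochondrial acetyl-CoA synthetase, had -1.36 and -1.30. All 7 of these genes were lower with age in Tfebfl/fl as well, by log2 ratios between -3.04 and -0.92.

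Spp1 (osteopontin), Ttr and Apoe were lower with age too, with log2 ratios of -1.71, -1.32 and -1.60. Spp1 is also a gene of the thick ascending limb, and it stood at 3100 CPM in the other barcodes of young Tfebfl/fl KAP against 633 CPM in members. Apoe, the lipoprotein component, was lower with age in members but higher in the other barcodes, where it stood at 101 and 223 CPM in young and aged. Hbb-bs, a beta-globin of red cells, made up most of the red cell sum given above, and its ratio of -1.87 turned to 0.65 in the barcodes richer in Slc22a30 described below.

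**Figure D1:**
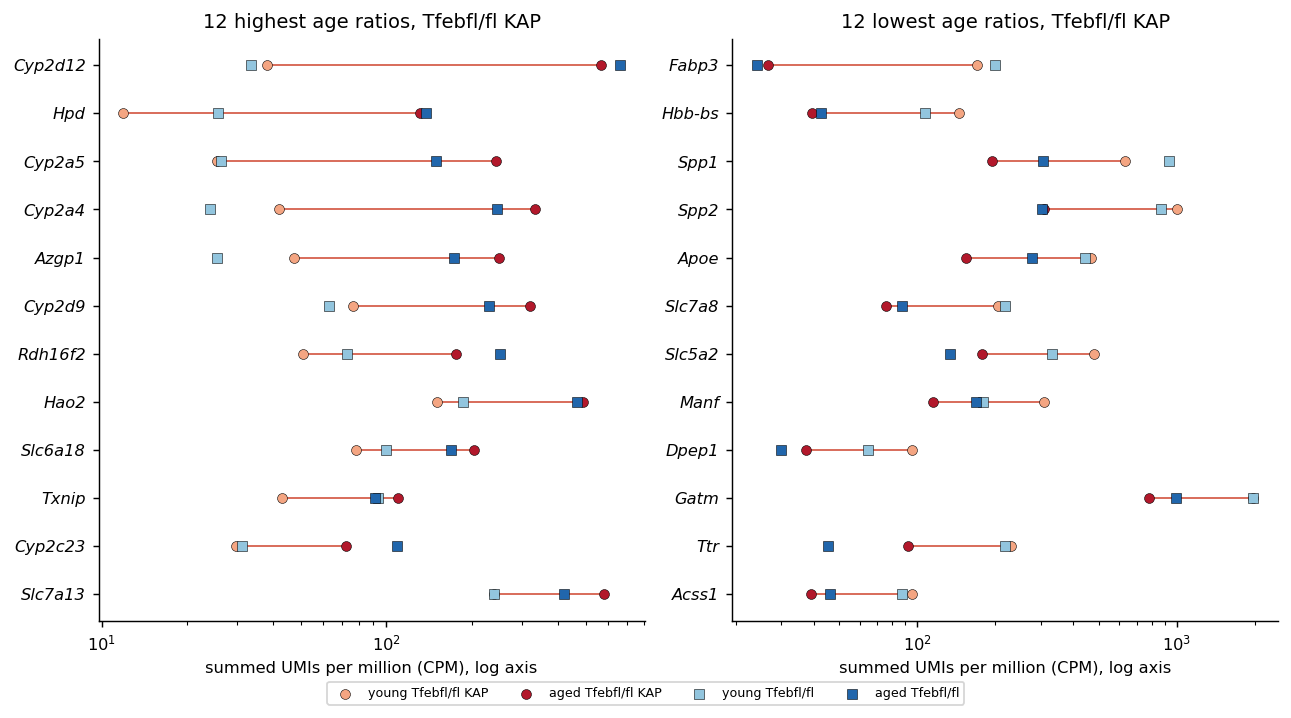
Summed CPM (log axis) of the 12 genes with the highest and the 12 with the lowest age ratio in Tfebfl/fl KAP proximal tubule barcodes, with 1 point per library and a line joining the young and aged KAP libraries. Slc7a13, plotted among the highest, was used to choose members and is a description only. Cyp2d12 stood at 38.0 and 567 CPM in the young and aged KAP libraries and Fabp3 at 170 and 26.6 CPM; for Txnip and Manf the Tfebfl/fl libraries lie close together.

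The ageing pattern of the control genotype was set beside these values, and the comparisons had no library in common. In Tfebfl/fl, 59 of 7060 genes (0.836%) were at least 2-fold higher in aged and 122 (1.73%) at least 2-fold lower. Among 6885 genes measured in both, 58 were at least 2-fold higher with age in Tfebfl/fl KAP and 52 in Tfebfl/fl, and 30 were in both sets, 51.7% of the KAP set and 57.7% of the other. Of the genes at least 2-fold lower, 75 in Tfebfl/fl KAP and 115 in Tfebfl/fl, 48 were in both, 64.0% and 41.7% of each. Between the age ratios, 72 of 7048 genes (1.02%) were over 2-fold higher in Tfebfl/fl KAP and 28 (0.397%) over 2-fold lower.

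**Figure D2:**
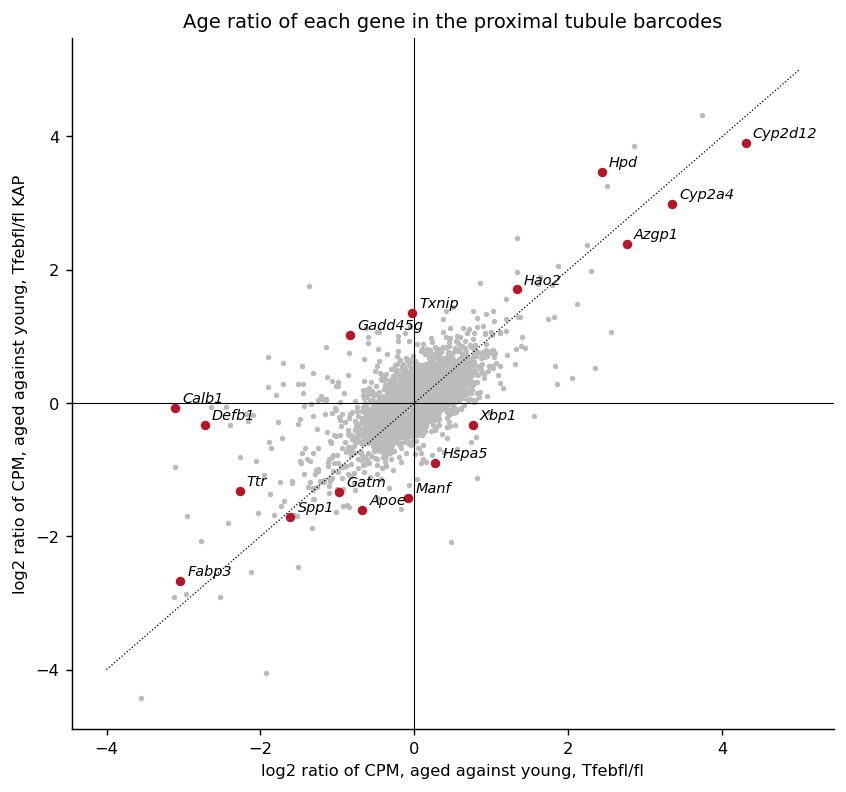
Log2 ratio of CPM, aged against young, for each of 6885 genes in Tfebfl/fl (horizontal) and Tfebfl/fl KAP (vertical) proximal tubule barcodes, 1 point per gene, with the dotted line where both are equal. Cyp2d12 and Fabp3 lie near the line, at 3.90 and -2.67 on the vertical axis, while Manf (-1.43 against -0.08) lies below it and Txnip (1.35 against -0.03) above it.

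The genes of endoplasmic reticulum (ER) protein folding were lower in aged than in young Tfebfl/fl KAP and were not lower with age in Tfebfl/fl. Of 20 measured members of a list of ER stress genes, 19 were lower in aged Tfebfl/fl KAP, where 48.6% of all genes were lower, and 7 were at least 1.5-fold lower, against 3.09% of all genes. Their median log2 ratio was -0.39. In Tfebfl/fl, 7 of the 20 were lower with age, where 51.1% of all genes were, and their median was 0.10.

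Several of these genes carry a known promoter element, the ER stress response element, in which CCAAT and CCACG stand 9 bases apart. The pattern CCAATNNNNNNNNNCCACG was searched on both strands of RefSeq promoters, from 250 bases before to 50 bases after each annotated start. It was found in 7 of the 18 list members with a promoter sequence (38.9%) and in 37 of all 27025 genes (0.137%). The 7 were Calr, Canx, Creld2, Dnajc3, Hsp90b1, Hspa5 and Pdia6. Whether the element had a part in the age differences was not tested. The matches of 3 of the 7, chosen for their levels after the values were seen, are shown. They are given in the direction of the gene, build GRCm38.p6 (mm10), with the match in capitals. That of Hspa5 lies at chr2:34772010-34772058 (plus strand), that of Pdia6 at chr12:17266476-17266524 (plus strand), and those of Hsp90b1 at chr10:86705518-86705566 and chr10:86705623-86705671 (minus strand), all upstream of the start.
Hspa5: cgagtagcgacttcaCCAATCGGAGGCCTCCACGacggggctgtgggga
Pdia6: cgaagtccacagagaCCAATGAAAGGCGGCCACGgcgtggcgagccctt
Hsp90b1 nearer site: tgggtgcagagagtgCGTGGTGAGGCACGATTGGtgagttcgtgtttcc
Hsp90b1 farther site: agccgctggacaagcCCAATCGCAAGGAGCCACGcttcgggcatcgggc
The nearer Hsp90b1 site holds the pattern on the opposite strand. A match of these letters is a description of the promoter and not a measurement of binding.

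Hspa5, which encodes the ER chaperone BiP, stood at 622 CPM in young Tfebfl/fl KAP, 332 CPM in aged Tfebfl/fl KAP, 364 CPM in young Tfebfl/fl and 439 CPM in aged Tfebfl/fl. Young Tfebfl/fl KAP was thus the highest of the 4 libraries and aged Tfebfl/fl KAP the lowest. The log2 age ratio was -0.91 (-0.93 to -0.88) in Tfebfl/fl KAP and 0.27 in Tfebfl/fl, a difference of -1.18 (-1.21 to -1.14). Manf, a secreted factor released on ER calcium loss, stood at 309, 115, 179 and 169 CPM in the same order, and its age ratios differed by -1.34 (-1.40 to -1.29). Dnajb9, a cochaperone of BiP, had ratios of -0.64 and 0.12. Hsp90b1, the ER form of the HSP90 chaperone, had -0.45 and 0.09, and Pdia6, a disulfide isomerase, had -0.42 and -0.10. Xbp1, a transcription factor of the unfolded protein response, had ratios of -0.33 and 0.76, and it was lowest in young Tfebfl/fl, at 74.3 CPM. Edem1, which helps clear misfolded glycoproteins, was the only measured member higher in aged Tfebfl/fl KAP, at 0.15.

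Young Tfebfl/fl KAP was the highest of the 4 libraries for 15 of the 20 ER genes (75.0%), where it was highest for 23.7% of all genes. The same age difference was present outside the proximal tubule. In barcodes with no UMI of Slc34a1 or Slc7a13, a mix of all other kidney cells, 17 of 21 measured ER genes were lower in aged than in young Tfebfl/fl KAP, where 35.4% of all genes were, with a median of -0.36. There Hspa5 stood at 790 and 418 CPM, a ratio of -0.92, and Manf at 298 and 120 CPM, a ratio of -1.32. In the same barcodes of Tfebfl/fl, 4 of 21 were lower with age, where 31.8% of all genes were, and the median was 0.14. With 1 library per group, a difference in how the young Tfebfl/fl KAP library was handled cannot be told apart from age or genotype in these values.

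**Figure D3:**
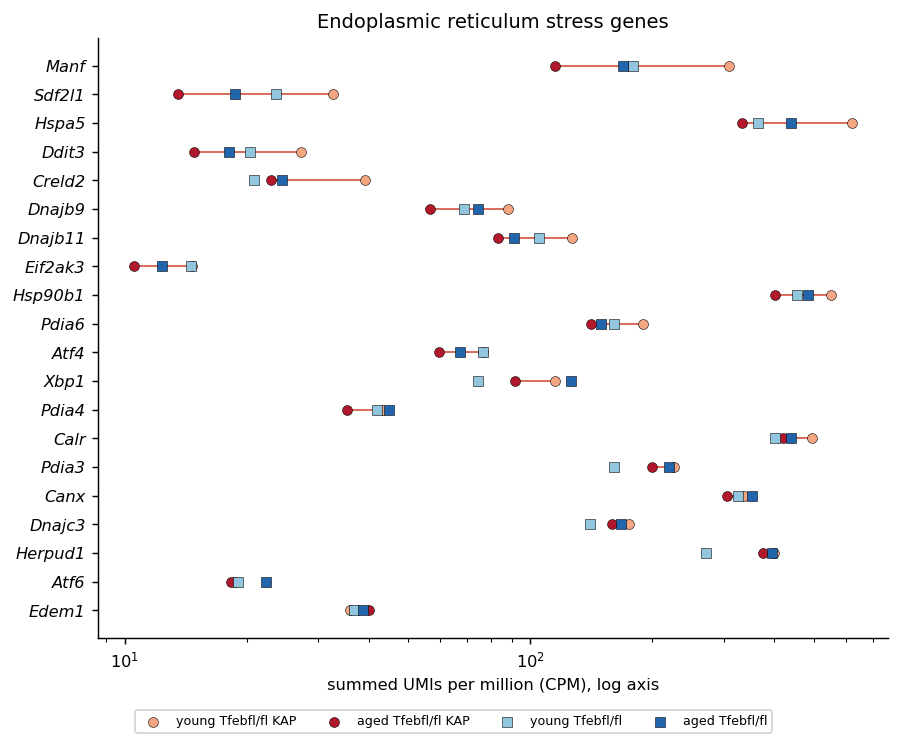
Summed CPM (log axis) of the 20 measured ER stress genes in proximal tubule barcodes of the 4 libraries, 1 point per library, with a line joining the young and aged KAP libraries. Hspa5 and Manf stood at 622 and 309 CPM in young Tfebfl/fl KAP and at 332 and 115 CPM in aged Tfebfl/fl KAP, the highest and the lowest point of their rows.

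Immediate early and heat shock genes, the fast response to stimuli and to misfolded protein in the cytosol, behaved alike. Of 24 measured members, 20 were lower in aged Tfebfl/fl KAP, where 48.6% of all genes were, and 13 at least 1.5-fold lower, against 3.09%, with a median of -0.63. In Tfebfl/fl 11 of 24 were lower, near the 51.1% of all genes, and the median was 0.04. Hspa1b, an inducible HSP70, stood at 38.7 and 9.16 CPM in young and aged Tfebfl/fl KAP and at 12.9 and 17.9 CPM in Tfebfl/fl. Its reads may be shared with the near-identical Hspa1a, which had a KAP ratio of -1.59. Hsph1, a partner of HSP70, had ratios of -0.74 and 0.39. Egr1 and Ier2, immediate early regulators, were lower with age in both genotypes, with KAP ratios of -0.93 and -0.91 and Tfebfl/fl ratios of -0.66 and -0.62. In the other barcodes 24 of 26 members were lower in aged Tfebfl/fl KAP, where 35.4% of all genes were, with a median of -0.50. There 24 of 26 were higher in aged Tfebfl/fl, where 68.2% of all genes were. The limit given for the ER genes holds for these genes too.

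Gadd45g, a stress-induced gene of growth arrest, went the opposite way, at 97.5 and 197 CPM in young and aged Tfebfl/fl KAP and 180 and 101 CPM in Tfebfl/fl, a difference in log2 ratio of 1.85 (1.79 to 1.91). Sgk1, a kinase induced by mineralocorticoids and glucocorticoids, had a difference of 1.5, with 66.5 and 124 CPM in Tfebfl/fl KAP and 96.3 and 63.4 CPM in Tfebfl/fl. Txnip, an inhibitor of thioredoxin that responds to glucose, stood at 43.1 and 110 CPM in Tfebfl/fl KAP and at 93.1 and 91.3 CPM in Tfebfl/fl, so young Tfebfl/fl KAP was the lowest library. In the other barcodes of Tfebfl/fl KAP Txnip was far more abundant, at 628 and 1098 CPM in young and aged, a ratio of 0.81. Gadd45g and Sgk1 were also more abundant there than in members, at 197 and 218 CPM and at 259 and 358 CPM. The part of transcripts from other cells in the members' values was not tested. Polr3e, a subunit of RNA polymerase III, had age ratios of 1.06 and -0.49, and Palld, an actin-binding protein, had -0.89 and 0.15.

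Genes of the circadian clock and its outputs were higher with age in Tfebfl/fl KAP. Of 13 measured members, 12 were higher, where 51.4% of all genes were, and 7 were at least 1.5-fold higher, against 3.5% of all genes, with a median of 0.67. Nr1d1, a repressor of the clock, stood at 28.9 and 60.1 CPM in young and aged Tfebfl/fl KAP, a ratio of 1.06, and Fkbp5, a glucocorticoid-induced chaperone partner counted among the outputs, at 24.3 and 52.7 CPM. In Tfebfl/fl 9 of 14 measured members were higher with age, where 48.9% of all genes were, and the median was 0.31, with 6 at least 1.5-fold higher against 3.37% of all genes. Dbp, a clock output factor, was higher by 2.35 in Tfebfl/fl and by 0.53 in Tfebfl/fl KAP, while Fkbp5 had -0.63 in Tfebfl/fl. Sgk1, given above, is also counted in this list, with 0.90 in Tfebfl/fl KAP and -0.60 in Tfebfl/fl. Bhlhe40, another member, had 0.73 and 1.20. No source used here states the hour at which tissue was taken. In the other barcodes of aged Tfebfl/fl KAP 8 of 12 members of the clock list were higher, near the 64.6% of all genes. Their median was 0.42, against 0.07 over all genes. In those of Tfebfl/fl 11 of 13 were higher with age, where 68.2% of all genes were, with a median of 0.47.

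Enzymes of cholesterol synthesis were lower with age. Of 17 measured members, 16 were lower in aged Tfebfl/fl KAP, where 48.6% of all genes were, and 7 at least 1.5-fold lower, against 3.09%, with a median of -0.48. Msmo1 and Fdps, enzymes of sterol and isoprenoid synthesis, had ratios of -1.20 and -1.04. The direction was alike in Tfebfl/fl, with 13 of 17 lower against 51.1% of all genes, and a median of -0.45. There 6 were at least 1.5-fold lower, against 3.99% of all genes. Among metal handling genes 10 of 11 were lower in both genotypes, where 48.6% of all genes were in Tfebfl/fl KAP and 51.1% in Tfebfl/fl. Ftl1 and Fth1, the ferritin chains that store iron, stood at 6306 and 15158 CPM in young Tfebfl/fl KAP and 3655 and 11274 CPM in aged, ratios of -0.79 and -0.43 that were -0.39 and -0.26 in Tfebfl/fl. Mt1, a metallothionein, had -0.87 in Tfebfl/fl KAP and -2.06 in Tfebfl/fl, and -0.26 in Tfebfl/fl KAP both after thinning and among barcodes with at most 20% mitochondrial UMIs.

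Lysosomal genes, the best known targets of TFEB, mostly had small age ratios, though membrane and proton pump genes were broadly lower in aged Tfebfl/fl KAP. Of 39 measured hydrolases and activators, 24 were lower in aged Tfebfl/fl KAP, where 48.6% of all genes were, and 15 higher, with a median of -0.06. At least 1.5-fold lower were 2, against 3.09% of all genes, and 1 was at least 1.5-fold higher, against 3.5%. Hexa and Dpp7, a hexosaminidase subunit and a dipeptidase, were those lower, with ratios of -1.03 and -0.94, and Napsa, an aspartic protease, the one higher, with 0.59. Ctsb, the protease cathepsin B, stood at 341 and 245 CPM in young and aged Tfebfl/fl KAP and at 307 and 297 CPM in Tfebfl/fl, log2 ratios of -0.48 (-0.51 to -0.45) and -0.05. In the other barcodes of Tfebfl/fl KAP, Ctsb was higher in aged, by 0.29. Lgmn, another of these genes, was lower with age in both genotypes, with -0.58 in Tfebfl/fl KAP and -0.50 in Tfebfl/fl.

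Among lysosomal membrane proteins and subunits of the proton pump (v-ATPase), 21 of 23 were lower in aged Tfebfl/fl KAP, where 48.6% of all genes were. Their median was -0.17 and none was past 1.5-fold. In Tfebfl/fl 17 of 23 were lower, where 51.1% of all genes were, with a median of -0.12. Lamp1, the main membrane glycoprotein of lysosomes, stood at 881 and 734 CPM in Tfebfl/fl KAP and 832 and 853 CPM in Tfebfl/fl, ratios of -0.26 and 0.04. Npc2, a soluble cholesterol-binding protein inside lysosomes that is counted in this list, had ratios of -0.50 and -0.03. The pump subunits Atp6v1g1 and Atp6v0c were lower with age in both genotypes. Atp6v1g1 had -0.38 in Tfebfl/fl KAP and -0.36 in Tfebfl/fl, and Atp6v0c had -0.31 and -0.26. In the other barcodes 16 of 25 members were higher in aged Tfebfl/fl KAP, where 64.6% of all genes were, with a median of 0.03. Autophagy and mitophagy genes were split, with 13 higher and 12 lower in aged Tfebfl/fl KAP, where 51.4% of all genes were higher. Gabarapl1, an autophagosome protein, had 0.59, and Sqstm1, the autophagy receptor p62, had 0.20.

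The sequence TCACGTGA, the core of the lysosomal promoter element bound by TFEB, was found in the promoter windows of 4 of the 19 membrane and v-ATPase genes with a sequence (21.1%) and of 3 of 28 hydrolases (10.7%), against 1.12% of all genes. It contains CACGTG, which was found in 6 of the 19, 9 of the 28 and 8.09% of all genes. Of ER genes, 1 of 18 held TCACGTGA and 2 of 18 CACGTG, and of 12 cholesterol genes 0 and 3, while the ER element was in none of the 19, 28 or 12. These motifs and lists were chosen after the values were seen. The sites of 2 of these that lie upstream of the start are shown, in capitals and in the direction of the gene, with Mcoln1 at chr8:3500458-3500495 (plus strand) and Atp6v1a at chr16:44139369-44139406 (minus strand).
Mcoln1: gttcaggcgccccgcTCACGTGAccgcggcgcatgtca
Atp6v1a: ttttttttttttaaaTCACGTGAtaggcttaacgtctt
Mcoln1, the lysosomal calcium channel, stood at 11.8 and 9.38 CPM in young and aged Tfebfl/fl KAP, a ratio of -0.34 (-0.50 to -0.18). Atp6v1a, the catalytic subunit of the pump, stood at 338 and 295 CPM, a ratio of -0.20, and had -0.26 in Tfebfl/fl. Of the other family members, Tfe3 and Mitf were sparse and had KAP ratios of -0.37 and -0.35, and that of Mitf turned to 0.08 when barcodes were weighted equally and to 0.01 after thinning. Tfec was more abundant, at 37.8 and 27.8 CPM in young and aged Tfebfl/fl KAP. Its ratio was -0.44 (-0.53 to -0.35) in Tfebfl/fl KAP and -0.42 in Tfebfl/fl.

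Nuclear genes of the respiratory chain were slightly but broadly lower. Of complex I subunits 32 of 36 were lower in aged Tfebfl/fl KAP, with a median of -0.18. Of the subunits of complexes II to V 39 of 41 were, also with a median of -0.18. Of all genes, 48.6% were lower. None of the 77 was past 1.5-fold, against 3.5% of all genes higher and 3.09% lower. Ndufa8, a complex I subunit, stood at 432 and 301 CPM, a ratio of -0.52, and Atp5g1, which forms the rotor of ATP synthase, at 1035 and 731 CPM, a ratio of -0.50. In Tfebfl/fl 24 of 36 and 30 of 41 were lower, where 51.1% of all genes were, with medians of -0.04 and -0.07. Young Tfebfl/fl KAP was the highest of the 4 libraries for 26 of the 36 and 28 of the 41 subunits (72.2% and 68.3%), against 23.7% of all genes. Citrate cycle enzymes followed, with 21 of 25 lower in aged Tfebfl/fl KAP against 48.6% of all genes, and a median of -0.13. The 13 subunits that mitochondria encode themselves were split, 8 higher and 5 lower, where 51.4% of all genes were higher. In the other barcodes of the KAP libraries 27 of 36 and 31 of 41 subunits were lower in aged, where 35.4% of all genes were. The medians there were -0.12 and -0.06. In those of Tfebfl/fl 25 of 36 and 34 of 41 were lower with age, where 31.8% of all genes were, with medians of -0.17 and -0.14.

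Fatty acid oxidation genes showed mostly small differences in both directions. Of 22 mitochondrial members 13 were higher and 9 lower in aged Tfebfl/fl KAP, and of 35 peroxisomal members 24 were higher. Their medians were 0.05 and 0.10, and 51.4% of all genes were higher. In Tfebfl/fl 17 of 22 mitochondrial and 24 of 36 peroxisomal members were higher with age, where 48.9% of all genes were. The medians there were 0.17 and 0.13. The exceptions among the peroxisomal members in Tfebfl/fl KAP were Hao2, given above at 1.70, and Slc27a2, a very long-chain acyl-CoA synthetase, at 0.61, and none was at least 1.5-fold lower. Hadha and Hadhb encode the subunits of the mitochondrial trifunctional protein. They stood at 82.5 and 129 CPM in young and 81.7 and 119 CPM in aged Tfebfl/fl KAP. Their ratios were -0.02 and -0.12 in Tfebfl/fl KAP and 0.26 and -0.02 in Tfebfl/fl. Cpt1a, which admits long-chain fatty acids to mitochondria, had 0.59 in Tfebfl/fl KAP and 0.68 in Tfebfl/fl. Acaa2, a mitochondrial thiolase, had -0.30 in Tfebfl/fl KAP and 0.15 in Tfebfl/fl. Of 15 measured targets of the nuclear receptor PPAR-alpha, 11 were higher, where 51.4% of all genes were, with a median of 0.32. In Tfebfl/fl 14 of 15 were, where 48.9% of all genes were, with a median of 0.46. Angptl4, an inhibitor of lipoprotein lipase, stood at 20.7 and 72.5 CPM in young and aged Tfebfl/fl KAP, a ratio of 1.81 that was 0.85 in Tfebfl/fl. Plin2, a lipid droplet coat protein, had -0.28, and Apob, the core protein of lipoproteins, had 1.25. Apoa4, an apolipoprotein, was nearly absent, with 3 and 10 UMIs in young and aged Tfebfl/fl KAP members and 30 and 4 UMIs in Tfebfl/fl.

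**Figure D4:**
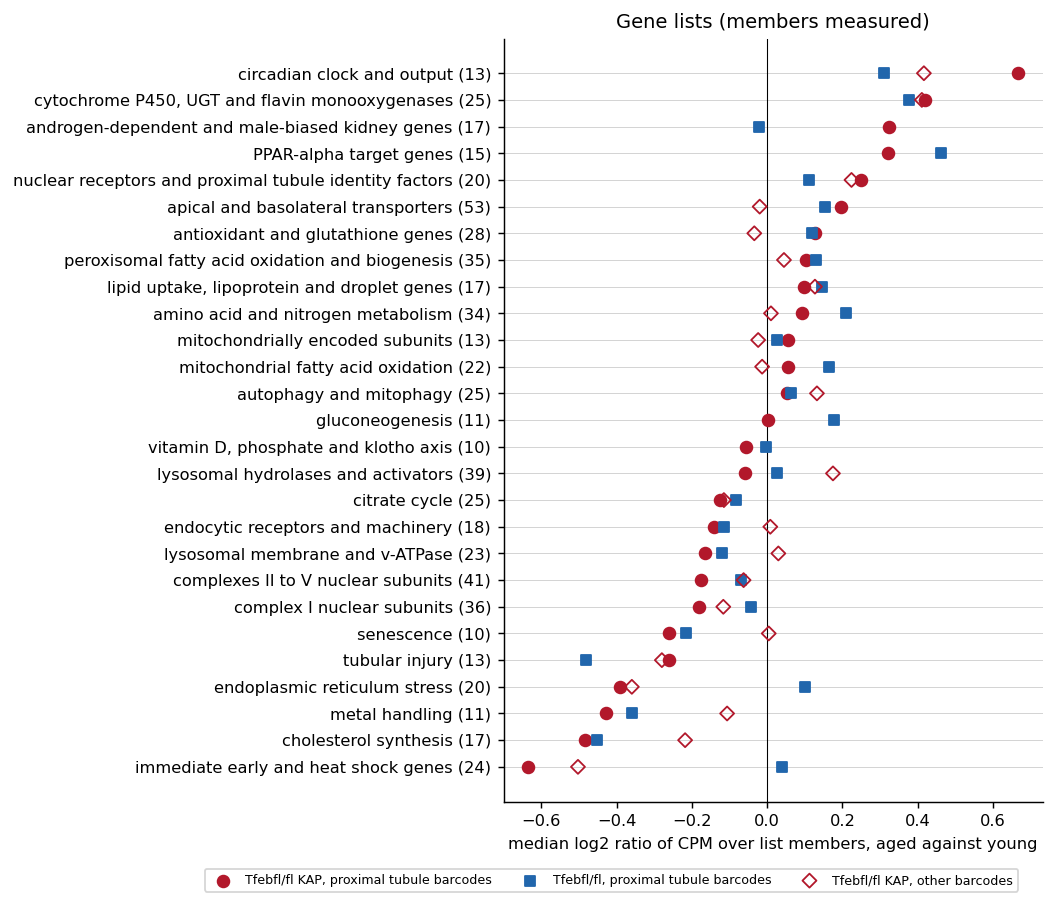
Median log2 ratio of CPM, aged against young, over the measured members of each gene list with at least 10 measured, for proximal tubule barcodes of Tfebfl/fl KAP (filled circles), of Tfebfl/fl (squares) and for the other barcodes of Tfebfl/fl KAP (open diamonds). The male-biased list plotted includes Slc7a13, which the rule used. The ER stress list lies at -0.39 and -0.36 in both sets of KAP barcodes and at 0.10 in Tfebfl/fl, and cholesterol synthesis at -0.48 and -0.45 in proximal tubule barcodes of both genotypes.

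Enzymes of drug and steroid metabolism were mostly higher with age. Of 25 cytochromes P450, UDP-glucuronosyltransferases and flavin monooxygenases, 19 were higher in aged Tfebfl/fl KAP, where 51.4% of all genes were, 10 of them at least 1.5-fold, against 3.5%, and 3 were at least 1.5-fold lower, against 3.09%, with a median of 0.42. Cyp24a1, which inactivates vitamin D, stood at 40.0 and 96.3 CPM in Tfebfl/fl KAP and 42.6 and 55.3 CPM in Tfebfl/fl, ratios of 1.27 and 0.38. Ugt2b34, a glucuronosyltransferase, was lower in both genotypes, with -1.65 and -2.03. The P450, UGT and Cyp2d genes belong to families of close copies, and reads may have been split between them.

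Of 15 androgen-dependent or male-biased kidney genes, leaving out Slc7a13, which the rule used, and Slc22a30, used for a division given below, 11 were higher in aged Tfebfl/fl KAP, where 51.4% of all genes were, with a median of 0.32. In Tfebfl/fl 7 of the 15 were higher with age, near the 48.9% of all genes, with a median of -0.04. Female-biased kidney genes were also mostly higher, 4 of 5 in aged Tfebfl/fl KAP with a median of 0.39 and 5 of 5 in aged Tfebfl/fl with a median of 0.16, Cyp2a4 among them. Kap, the gene whose promoter drives the Cre, stood at 36147 and 50300 CPM in young and aged Tfebfl/fl KAP, a log2 ratio of 0.48, and had -0.04 in Tfebfl/fl. Cyp2e1, a P450 induced by androgen in mouse kidney, had ratios of 1.14 and 0.81. Slco1a1, an organic anion transporter, stood at 168 and 174 CPM in Tfebfl/fl KAP and at 122 and 53.4 CPM in Tfebfl/fl. Slc7a13, 239 and 579 CPM in young and aged Tfebfl/fl KAP, was used in the rule and is given as a description only.

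Of 53 transporters, 37 were higher in aged Tfebfl/fl KAP, where 51.4% of all genes were, and 16 lower, with a median of 0.20. Of the 7 past 1.5-fold, 3 were higher, against 3.5% of all genes, and 4 lower, against 3.09%. In Tfebfl/fl 35 of 53 were higher with age, where 48.9% of all genes were, with a median of 0.15. There 9 were at least 1.5-fold higher, against 3.37%, and 5 at least 1.5-fold lower, against 3.99%. In Tfebfl/fl KAP, besides Slc5a2 and Slc7a8, Slc34a3, a phosphate cotransporter, was lower, at 66.4 and 20.7 CPM. So was Slc7a7, a cationic amino acid transporter, at 166 and 107 CPM. Slc6a18, an apical glycine and amino acid transporter, was higher, at 77.9 and 203 CPM, as was Slc13a1, the sodium-sulfate cotransporter, at 345 and 556 CPM. Slc34a1, which the rule used, had -0.12. Cubn and Amn, partners in the receptor that takes up filtered protein, went opposite ways, with 0.44 and -0.62. Among 34 enzymes of amino acid and nitrogen metabolism 22 were higher, where 51.4% of all genes were, and 12 lower, with a median of 0.09. Aadat, an aminotransferase, stood at 90.9 and 178 CPM. In Tfebfl/fl 27 of 35 of these enzymes were higher with age, where 48.9% of all genes were, with a median of 0.21.

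Injury and senescence genes had medians of -0.26 each, and most genes of antigen presentation were higher with age. Of 13 measured injury genes 9 were lower in aged Tfebfl/fl KAP, where 48.6% of all genes were, and 10 of 13 in Tfebfl/fl, where 51.1% were. The KAP median was 0.044 with the mix of tubule sides described below held at that of the young library. Of 10 senescence genes 7 were lower in both genotypes, and the KAP median was 0.0067 with barcodes weighted equally, 0.013 after thinning and 0.13 in barcodes richer in S3 markers. Gdf15, a stress-induced secreted factor listed under senescence, stood at 131 and 66.4 CPM, and Cdkn1a, the cell cycle inhibitor p21, at 24.7 and 15.2 CPM. Of 8 measured genes of antigen presentation and complement 6 were higher, where 51.4% of all genes were, with a median of 0.28. In Tfebfl/fl all 10 measured were higher, where 48.9% of all genes were, with a median of 0.73. The summed lymphocyte markers were 8.5 and 18.8 CPM in young and aged Tfebfl/fl KAP members and 1.6 and 17.2 CPM in Tfebfl/fl, and the macrophage markers 6.1 and 12.5 CPM, and 12.9 and 27.6 CPM. Their part in these values was not tested.

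Several of the largest differences between the genotypes' age ratios concerned genes of the distal nephron. Calb1, a calcium buffer, stood at 54.6 and 51.9 CPM in young and aged Tfebfl/fl KAP and at 150 and 17.3 CPM in Tfebfl/fl, a difference of 3.04 (2.93 to 3.15). Slc12a3, the thiazide-sensitive cotransporter, Fxyd4, a sodium pump regulator of the collecting duct, S100g, a calcium-binding protein, and Defb1, an epithelial antimicrobial peptide, had differences of 1.61, 2.00, 1.61 and 2.40. The summed principal cell and connecting tubule markers stood at 184 and 200 CPM in Tfebfl/fl KAP and 295 and 84.1 CPM in Tfebfl/fl. Calb1 is 1 of these 4 markers, so their sum is not independent of it. Aqp2, another of them, stood at 67.1 and 65.4 CPM in Tfebfl/fl KAP and 66.1 and 24.4 CPM in Tfebfl/fl. Hsd11b2 and Scnn1g, the remaining markers, were lower with age in Tfebfl/fl and higher in Tfebfl/fl KAP. Thick ascending limb markers were also lower with age in Tfebfl/fl, at 567 and 206 CPM. None of the markers was at 0. The share of stored matrix entries equal to 0 was 12.5% and 12.9% in the young and aged KAP libraries. It was 2.90% in young Tfebfl/fl and 9.41% in aged Tfebfl/fl. Whether background correction made these zeros was not tested. The part of these values in the differences was not tested. With high doublet scores removed, the KAP ratio became -1.83 for Calb1, -1.61 for Defb1, -0.17 for Fxyd4 and -1.20 for S100g. In the other barcodes, with no UMI of Slc34a1 or Slc7a13, Calb1 was far more abundant. It stood there at 2159 and 1644 CPM in young and aged Tfebfl/fl KAP and at 2560 and 1726 CPM in Tfebfl/fl. Its age ratios there were -0.39 in Tfebfl/fl KAP and -0.57 in Tfebfl/fl. In the same order, Defb1 had -0.22 and -0.47, Fxyd4 -0.35 and -0.42, Slc12a3 0.80 and 0.89, and S100g -0.04 and 0.01. The part of transcripts from these barcodes in the members' values was not tested.

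To see where along the tubule the age differences lay, members were divided by whether they held more UMIs of Slc5a12, a lactate transporter of the early segments, or of Slc22a30, a transporter of the late segment. This division was chosen after the values were seen. It gave 1390 young and 960 aged Tfebfl/fl KAP barcodes on the Slc5a12 side, 1498 and 1283 on the Slc22a30 side, and 702 and 386 with equal counts. The Slc22a30 side made up 41.7% and 48.8% of young and aged members, and 252 and 138 barcodes had between 40% and 60% of both genes' UMIs from Slc22a30. Slc5a2, an S1 and S2 gene that did not enter the division, stood at 980 CPM on the Slc5a12 side and 111 CPM on the other in young Tfebfl/fl KAP. In aged Tfebfl/fl KAP it stood at 456 CPM on the Slc5a12 side and 25.4 CPM on the other.

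On the Slc5a12 side, sex-biased and S3 genes were far higher in aged than in young Tfebfl/fl KAP. Kap stood there at 3781 and 19318 CPM in young and aged, a log2 ratio of 2.35, against 0.17 on the Slc22a30 side. The same was seen in Tfebfl/fl, where Kap stood at 2594 and 11779 CPM on the Slc5a12 side. Its ratios there were 2.18 on that side and -0.33 on the other. In Tfebfl/fl KAP Cyp2d9 had ratios of 4.58 and 1.70 on these sides, Cyp2e1 had 2.80 and 0.68, and Cyp4b1, a P450 of fatty acid and drug oxidation, had 1.97 and 0.21. In Tfebfl/fl Cyp2d9 had 4.46 and 1.56 and Cyp2e1 had 2.45 and 0.43. Over the 15 androgen-dependent or male-biased genes the median was 1.5 on the Slc5a12 side, with 11 of 15 higher against 57.7% of all genes, and 0.02 on the other, with 8 of 15 higher against 45.7%. In Tfebfl/fl these medians were 1.23 and -0.11. The difference between the sides was not limited to male-biased genes. All 5 female-biased genes were higher on the Slc5a12 side, with medians of 1.61 there and 0.11 on the other side, and 1.54 and -0.19 in Tfebfl/fl. PPAR-alpha targets had medians of 1.06 and 0.03, and 1.09 and 0.22 in Tfebfl/fl. Slc22a30 itself, which defined the division, stood at 74.9 and 125 CPM on the Slc5a12 side. Slc6a18 stood there at 7.82 and 45.5 CPM in young and aged Tfebfl/fl KAP, while Slc5a2 was lower in aged, as given above. Whether the mix of segments on this side differed with age, and its part in these ratios, was not tested. At least 2-fold higher genes numbered 176 of 7253 (2.43%) on the Slc5a12 side and 55 of 6675 (0.824%) on the Slc22a30 side, and at least 2-fold lower genes 102 (1.41%) and 57 (0.854%).

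Other groups also differed between the sides. All 41 subunits of complexes II to V were lower with age on the Slc5a12 side, where 42.3% of all genes were, with a median of -0.37, and 27 of 41 on the Slc22a30 side, where 54.3% of all genes were, with a median of -0.05. In Tfebfl/fl the medians of complexes II to V also differed between the sides, at -0.26 on the Slc5a12 side and 0.07 on the other. Immediate early and heat shock genes had a median of -0.43 on the Slc5a12 side and -0.87 on the Slc22a30 side in Tfebfl/fl KAP. Their medians in Tfebfl/fl were -0.05 and 0.07. The ER stress list was alike on both, with 17 and 20 of 20 lower and medians of -0.49 and -0.36. Lysosomal hydrolases and activators did not keep 1 direction in Tfebfl/fl KAP. On the Slc5a12 side 21 of 39 were higher, where 57.7% of all genes were, with a median of 0.03. On the Slc22a30 side 14 of 38 were higher, where 45.7% of all genes were, with a median of -0.09. Their medians in Tfebfl/fl were 0.09 and 0.03. Ctsb had -0.54 on the Slc5a12 side and -0.31 on the Slc22a30 side in Tfebfl/fl KAP, and Lamp1 had -0.27 and -0.22. In Tfebfl/fl Ctsb had -0.15 and 0.14, and Lamp1 had 0.003 and 0.07. The following values are again those of Tfebfl/fl KAP. Tfeb had -0.31 (-0.63 to -0.01) on the Slc5a12 side and -1.16 (-1.55 to -0.78) on the Slc22a30 side, at 5.50 and 2.46 CPM in young and aged. In Tfebfl/fl these were 0.01 and -0.37. Among the few barcodes with more UMIs of S3 markers than of S1 and S2 markers, 27 young and 35 aged, Apoe, Gatm, Acss1, Hspa5 and Xbp1 were not lower in aged, and the medians of complex I and of complexes II to V were 0.013 and 0.0040. These few barcodes need not be S3 cells. Cyp7b1, one of the S3 markers, stood at 2.08 and 1.55 CPM in young and aged KAP members. In the KAP barcodes outside the set that passed the filters it stood at 11.4 and 9.85 CPM.

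**Figure D5:**
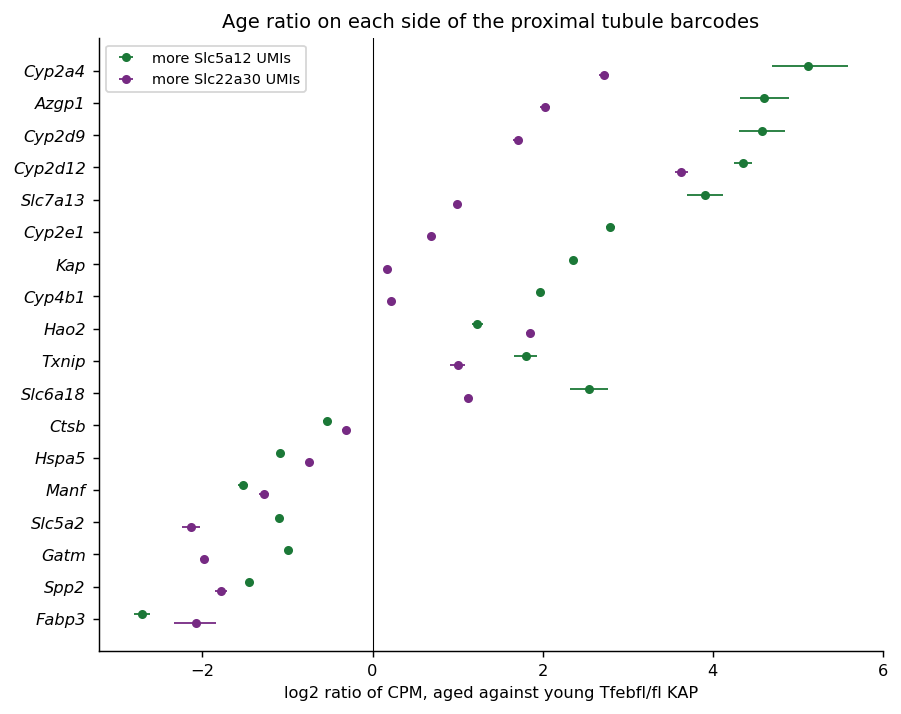
Log2 ratio of CPM, aged against young Tfebfl/fl KAP, for 18 genes in barcodes with more UMIs of Slc5a12 (green) and with more of Slc22a30 (purple), with bars for the 95% interval of counting error. Slc7a13 was used to choose members and is a description only. Kap had 2.35 on the Slc5a12 side and 0.17 on the other, while Manf had -1.53 and -1.27.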

How the data were processed

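Renal cortex cells of male mice were profiled with the 10x Genomics 3′ v3.1 kit, 1 library per group from 2 or 3 pooled mice. The deposited values are UMI counts per gene and barcode, which the authors made with Cell Ranger 6.0.0 (genome mm10, per the submitters' processing notes, with no annotation named) and corrected for background RNA with SoupX, so the counts depend on that correction. The share of stored entries equal to 0 differed between libraries. Counts of members were summed per library and scaled to CPM (pandas 2.3.3, numpy 2.4.6 and scipy 1.17.1 under Python 3.11.15). Log2 ratios carry exact Clopper-Pearson intervals conditional on both counts, and differences of ratios carry normal intervals from 4 counts. The script was tested on simulated data. Genes entered lists at a mean of at least 10 CPM. Doublets were kept in the main values and removed by Scrublet score (scanpy 1.11.5) at 0.8% per 1000 barcodes as an alternative.

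The genes named were the 12 highest and 12 lowest ratios with a mean of at least 50 CPM, the 3 largest ratios of each list (at a mean of at least 50 CPM where 3 such exist, otherwise 10), the 8 largest differences in each direction at a mean of at least 50 CPM, and a fixed set around Tfeb, leaving out predicted, Rik and clone names among the highest, the lowest and the differences. Certain genes that the rule names are not reported here. Other genes named as examples were chosen after their values were seen. The members and lists were chosen with earlier results of these data known. The division by S1/S2 and S3 markers hardly divided the members, so one by Slc5a12 and Slc22a30 was added. Promoters came from RefSeq (GRCm38.p6).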

Additional observations from a re-analysis of the deposited data

Results flagged for a closer look

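Each result below is a gene the text names by rule whose log2 age ratio had an interval above 0 in one genotype and below 0 in the other. With 1 library per group the difference was not tested, and the value given is the KAP ratio minus the Tfebfl/fl ratio. Higher in Tfebfl/fl KAP were Apoa4 (4.61, from 3 and 10 UMIs in young and aged Tfebfl/fl KAP and 30 and 4 UMIs in Tfebfl/fl), Fxyd4 (2.00), Gadd45g (1.85), Slc12a3 (1.61), S100g (1.61), Polr3e (1.55), Sgk1 (1.5), Col4a4, a basement membrane collagen chain (0.881), Kap (0.513) and Amacr, a peroxisomal racemase (0.179). Lower in Tfebfl/fl KAP were Rarres2, the chemoattractant chemerin (-1.32), Hspa5 (-1.18), Cyp4a14, a fatty acid hydroxylase (-1.13), Hsph1 (-1.13), Xbp1 (-1.09), Palld (-1.05), Dnajb9 (-0.751), Ifitm3, an interferon-induced membrane protein (-0.729), Acaa2 (-0.447), Atp5j2, an ATP synthase subunit (-0.351), Lamp1 (-0.300) and Slc34a1 (-0.221), which the rule for members used.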

How the results depend on the processing

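The 123 genes named by rule were followed across 15 alternative settings. Of these, 37 whose interval had left out 0 changed sign in Tfebfl/fl KAP in at least 1 setting, and the cause was not tested. So did 3 whose interval held 0 (Hadha, Acat2 and Col4a3), and of 32 list medians 12 of at least 0.1 in size and 8 smaller ones. Log2 values below are those after a change of sign, without these 3 genes and 8 lists. The divisions and mixes by Slc5a12 and Slc22a30, the removal of the deepest members and the rule with Slc34a1 alone were added after seeing the data. On the Slc22a30 side the changed values were the interferon and acute phase response list 0.16, Hbb-bs 0.65, Irgm1 0.16, Fxyd4 -0.40, Amacr -0.094. On the Slc5a12 side they were Calb1 0.35, S100g -1.15, Rarres2 0.50, Cyp4a14 1.17, and with aged members weighted to the young mix of sides the tubular injury list 0.044, Calb1 0.27, Defb1 0.029. With at least 10 per 10000 UMIs of the rule genes Calb1 had 0.72. With at most 20% mitochondrial UMIs the values were the extracellular matrix and fibrosis list 0.13, S100g -0.60, and with a mean of at least 50 CPM the extracellular matrix and fibrosis list 0.039. With doublets removed they were Ifitm3 0.37, Fxyd4 -0.17, S100g -1.20, and with the deepest members removed too Ifitm3 0.45, Fxyd4 -0.14, S100g -0.91. With barcodes weighted equally they were the senescence list 0.0067, the interferon and acute phase response list 0.090, Ifitm3 0.37, Calb1 0.15, Mitf 0.078. After thinning they were the senescence list 0.013, the MiT/TFE family and direct targets list 0.0090, the extracellular matrix and fibrosis list 0.022, Ccnd1 0.0049, Ifitm3 0.19, Calb1 0.072, Defb1 0.027, Cyp4a14 0.10, Mitf 0.0054. The 27 young and 35 aged barcodes richer in S3 markers gave the most changes of sign: the complex I nuclear subunits list 0.013, the complexes II to V nuclear subunits list 0.0040, the citrate cycle list 0.12, the PPAR-alpha target genes list -0.10, the endocytic receptors and machinery list 0.16, the female-biased kidney genes list -0.18, the senescence list 0.13, the interferon and acute phase response list 0.48, the antioxidant and glutathione genes list -0.026, the extracellular matrix and fibrosis list 0.24, Apoe 2.14, Gatm 0.065, Acss1 0.43, Sqstm1 -0.21, Atp5j2 0.016, mt-Atp8 -0.32, Idh3a 0.035, Cs 0.16, Acaa2 0.71, Amn 0.34, Cubn -0.052, Ugt3a1 -0.62, Pdzk1 0.10, Gdf15 0.11, Igfbp5 0.31, Irgm1 1.48, Ifitm3 0.90, Sod1 -0.18, Hspa5 0.013, Fnip2 -0.24, Rragd 1.65, Esrra 0.59, Timp3 0.34, Defb1 0.74, Fxyd4 -2.84, Xbp1 0.20, Slc34a1 0.42, Apoa4 -0.93, Plin2 0.065.

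The deepest members are those above the 0.9 quantile of UMIs. Counts of genes past 2-fold were 67 higher and 77 lower in Tfebfl/fl KAP, 59 and 122 in Tfebfl/fl, and 72 and 28 for the difference of ratios. They became 23 and 22, 19 and 27, and 20 and 7 at a mean of at least 50 CPM, 1603 and 1472, 1252 and 2045, and 1896 and 1197 with no filter, and 581 and 412, 696 and 826, and 1137 and 721 in the barcodes richer in S3 markers. With barcodes weighted equally, Tfebfl/fl KAP had 102 and 51 and Tfebfl/fl had 90 higher. After thinning, Tfebfl/fl KAP had 123 higher and the difference 119 and 45. Genes with a higher difference numbered 123 among barcodes with at most 20% mitochondrial UMIs, 40 with doublets removed and 45 with the deepest members removed too. The Slc5a12 side had 176 higher in Tfebfl/fl KAP and 160 in Tfebfl/fl. No paired analysis was possible because each group was 1 library and the labels carry no replicate numbers, so leaving out a replicate was not possible either. Genes with few counts, such as Tfeb and Apoa4, are limited by depth.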
